A study of Mus musculus with 10 samples.

Results

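The data described here are the H3K27ac immunoprecipitates of mouse bone marrow-derived mast cells, each called against its own input DNA. Acetylation of lysine 27 on histone H3 is placed by the acetyltransferases p300 and CBP, is removed by histone deacetylases, and is found on the nucleosomes beside active promoters and active enhancers. It forms narrow islands at single elements and long, nearly unbroken domains where many active elements lie close together, which is the pattern on which lists of super-enhancers are usually built. Mast cells are tissue-resident granulocytes of the haematopoietic lineage that carry the high-affinity IgE receptor and the Kit receptor and store histamine and proteases in their granules.

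The lists were chosen by name: the 3 lists in which an H3K27ac immunoprecipitate (replicates 1 to 3) stood against the input of the same number. They rest on 6 of the 10 samples of the series and hold 104471 of its 234627 peaks. All cells came from C57BL/6 mice aged 6 to 8 weeks, and no genotype, stimulus or treatment was compared. The marrow was grown for 4 weeks in medium with 20 ng/ml of the cytokine IL-3, after which the labels give more than 99% of the cells as positive for both receptors by flow cytometry. Chromatin was fixed with 1% formaldehyde and precipitated with the antibody ab4729, and the libraries were read on an Ion Torrent Proton. Nothing in the labels ties the replicates to different cultures or animals, so p-values and SDs measure only the spread between these lists, which may be technical. The cells' identity was not checked against marker genes here, because no gene annotation of the mm9 build was used, and loci are therefore named by their mm9 coordinates alone.

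Replicate 1 had 39837 peaks from 16356587 immunoprecipitated and 10730453 input tags, replicate 2 had 34035 peaks from 11413241 and 19265001 tags, and replicate 3 had 30599 peaks from 10457047 and 9433267 tags. The peaks covered 30.7, 25.4 and 22.9 Mb. Each peak carried its length, the position of its summit, the pileup there (overlapping tags, after scaling to the smaller library) and the fold, which is the pileup plus 1 over the local input background plus 1. Background values are given in the same scaled tags. Because each fold depends on the depth of its own pair of libraries, peaks were ranked within a list. The folds of the 3 lists are printed beside their ranks, and a difference in fold between lists is not read as a difference in acetylation. Peaks of different lists that shared at least 1 bp were joined into a locus, and a locus took the fold of its highest peak and the length of its widest peak in each list. Of the 43225 loci, 19670 (45.5%) held a peak of all 3 lists, and the loci described below are among these. A rank always counts all peaks of its own list.

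The best mean rank by fold over input in the 3 lists was that of chr17:34256485-34261031. Its highest peak had a fold of 46.7 in replicate 1, 25.9 in replicate 2 and 35.0 in replicate 3, which were ranks 3, 7 and 2 of their lists. It was the one locus among the first 10 ranks of every list, and its summits lay at 34257625, 34257706 and 34257638. By pileup, without the input, it ranked 48, 65 and 48, and its background was 1.14, 1.78 and 1.01 tags, the genome-wide floor in replicates 1 and 3. This locus was not wide: its widest peak was 3091, 1489 and 4520 bp long and ranked 1039, 3528 and 260 by length. In replicate 2 it was split into 3 peaks, and in replicate 3 it was a single one.

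Next came chr9:107199193-107213016, with folds of 43.2, 23.2 and 33.6 at ranks 13, 39 and 3. This locus was also wide, with a widest peak of 9886, 7373 and 9766 bp at ranks 23, 39 and 10 by length. A second peak followed in all 3 lists, and in replicates 1 and 2 its summit lay 11100 and 11473 bp away from the first. The locus therefore stood near the top of both orders in each list. At chr11:53427712-53432221 the folds were 38.1, 23.0 and 26.8, at ranks 55, 44 and 93. These were the 3 loci among the top 100 by fold in every list, or 0.0153% of the loci tested; since ranks chose them, the share is a description only. Asked of 2 lists alone, the same limit held 9, 11 and 21 loci when replicate 1, 2 or 3 was left out.

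A wider limit of 500 by fold in every list held 71 loci (0.361%). The limit of 100 was not a natural break. Just outside it lay chr6:113326663-113329805, with folds of 35.0, 23.8 and 26.2 at ranks 112, 26 and 108, and chr6:136886234-136891636, with folds of 39.9, 26.2 and 25.6 at ranks 37, 5 and 124. The locus chr5:135058622-135060797 ranked 5 in replicate 1 with a fold of 45.8, yet 56 with 22.6 in replicate 2 and 186 with 24.3 in replicate 3. Its summit lay at 135060563 in replicate 1 and 135060510 in replicate 3 but at 135059197 in replicate 2, within a single peak of 2073 to 2176 bp in each list.

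The remaining loci of the 10 highest were chr7:148414289-148415462, chr4:116795649-116800269, chr16:93190592-93202251 and chr7:148152991-148161651. The first of these was the narrowest of the 10: its longest peak was 500, 988 and 355 bp, at ranks 19648, 6712 and 20305 by length, although its folds were 37.5, 22.8 and 25.5. It was 1 peak in replicate 2 and a pair of peaks in replicates 1 and 3, with summits 597 and 659 bp apart. The locus on chromosome 16 was far wider (10584, 10260 and 9477 bp). Among the 10 highest loci the longest peak thus ran from 355 to 10584 bp. Membership of this set rested on each list and on the measure: 4, 2 and 6 of the 10 stayed among the 10 when replicate 1, 2 or 3 was left out, and 1 stayed when pileup replaced fold.

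**Figure D1:**
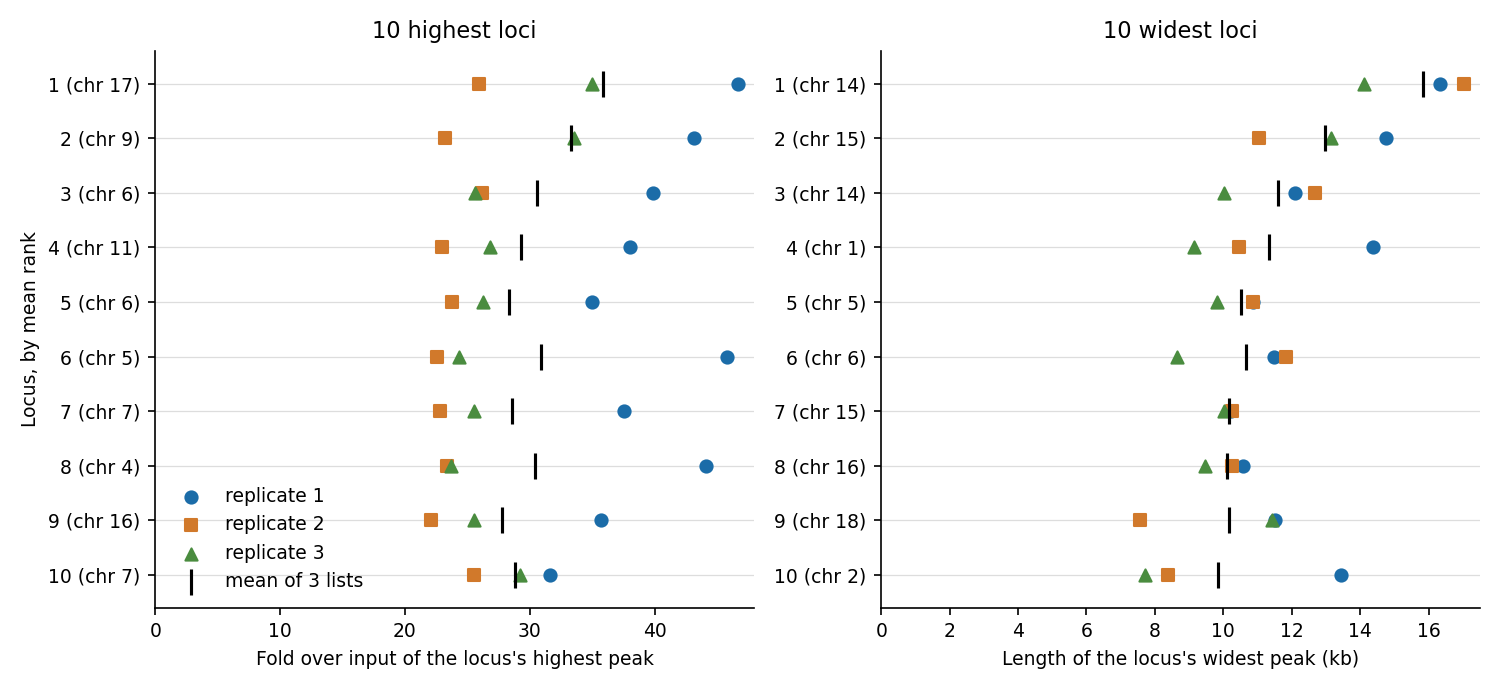
Fold over input of the highest peak at the 10 loci with the best mean rank by fold (left) and length in kb of the widest peak at the 10 loci with the best mean rank by length (right). Coloured symbols are the 3 lists, some of which overlap, and black ticks are their means; replicate 1 has the largest fold at all 10 loci on the left, whereas on the right the order of the lists varies from locus to locus.

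The widest acetylation was in all 3 lists the same locus, chr14:56557861-56574884. Its widest peak was 16332, 17024 and 14121 bp long, rank 1 by length in every list. By height it was unexceptional, with folds of 17.7, 15.1 and 18.4 at ranks 3461, 1244 and 1033. Its summits lay at 56563213 in replicates 1 and 2 and at 56563018 in replicate 3. At this summit the local input background was 4.00, 2.96 and 2.00 tags, against list medians of 1.49, 1.87 and 1.41 tags, and the part of the input in its fold was not tested.

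A second wide locus lay beside it. Across 6081 bp without a peak, chr14:56538702-56551779 had a widest peak of 12088, 12671 and 10034 bp, at ranks 7, 2 and 7. Its highest summit was at 56542468 in replicate 2 and 56542590 in replicate 3, but at 56548051 in replicate 1. Whether these places differ in height by more than counting error was not tested.

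Chromosome 15 held a like pair. The locus chr15:78140281-78155040 had a widest peak of 14760, 11053 and 13137 bp, at ranks 2, 7 and 2, and only 232 bp separated it from chr15:78129787-78140048, with 10216, 10262 and 10034 bp at ranks 21, 13 and 7. The latter was a single unbroken peak in every list. The fold at the former was 32.9 in replicate 1 and 15.0 and 17.5 in replicates 2 and 3, with a local input background of 2.00, 4.74 and 4.00 tags, the part of which was not tested. These values come from summits at 78148578 and 78148610 in replicates 1 and 3 but at 78144260 in replicate 2, another place in the locus.

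The other 6 of the 10 widest loci each lay apart. At chr1:175144905-175159956 the widest peak was 14378, 10463 and 9130 bp, and at chr5:35374922-35385795 it was 10870, 10856 and 9802 bp. The chromosome 5 locus was also tall, with folds of 33.4, 21.1 and 31.1 and a summit at 35378220, 35378236 and 35378226, positions within 16 bp of each other. At chr6:108641079-108653632 the widest peak was 11491, 11825 and 8654 bp. The lists thus placed the same summit in a domain of about 10 kb at chromosome 5, which was not the case at chr14:56538702-56551779 above.

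The locus chr16:93190592-93202251 was the 1 locus in both sets of 10. At chr18:50181084-50197522 the widest peak was 11523, 7568 and 11430 bp, and the locus was split into 5, 5 and 3 peaks. It had folds of 12.1, 15.2 and 22.1 at ranks 9351, 1229 and 369. By pileup it ranked 691, 1452 and 657. The fold of replicate 1 comes from a summit at 50187732, those of replicates 2 and 3 from 50183688 and 50183527, another place in the locus. The local input background was 2.03 and 1.33 tags in replicates 2 and 3 and higher in replicate 1, and its part in the folds was not tested. At chr2:38385314-38398753 replicate 1 had 1 peak of 13440 bp, while replicates 2 and 3 had 4 and 5 peaks, the longest of 8380 and 7705 bp. This locus was 1 peak in one list and several shorter ones in the others.

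By length, 36 loci (0.183%) were among the top 100 in every list and 235 (1.19%) among the top 500. The count of 36 became 59, 51 and 48 when replicate 1, 2 or 3 was left out and 56 when peaks were joined across 1000 bp, under which 2 of the 10 widest loci stayed among the 10. Just inside the limit of 100 were chr18:40095849-40106045, with 8214, 7493 and 5941 bp, and chr5:123585445-123592186, with 6742, 6298 and 6248 bp. Just outside were chr1:40481528-40492418, with 10891, 5902 and 5934 bp, and chr10:61963377-61972915, with 7439, 5791 and 6388 bp. As with height, no gap in the values set the inside apart from the outside.

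Among the top 500 of both orders in every list were 20 loci (0.102%). The count was 43, 43 and 44 when replicate 1, 2 or 3 was left out, 51 when peaks were joined across 1000 bp and 82 when pileup replaced fold. The best by the worse of its mean ranks was the chromosome 9 locus, followed by the chromosome 16 locus at 93190592, by chr7:148152991-148161651, by the chromosome 5 locus at 35374922 and by chr16:92814622-92824227. The chromosome 7 locus had folds of 31.6, 25.5 and 29.2 and a widest peak of 8592, 8639 and 5648 bp. The fifth had folds of 39.5, 21.7 and 24.3 and a widest peak of 8092, 5758 and 5260 bp. Chromosome 16 held 2 of the 5 and 669 (3.40%) of all loci with a peak in every list. With 5 loci chosen by rank, this count is a description only.

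**Figure D2:**
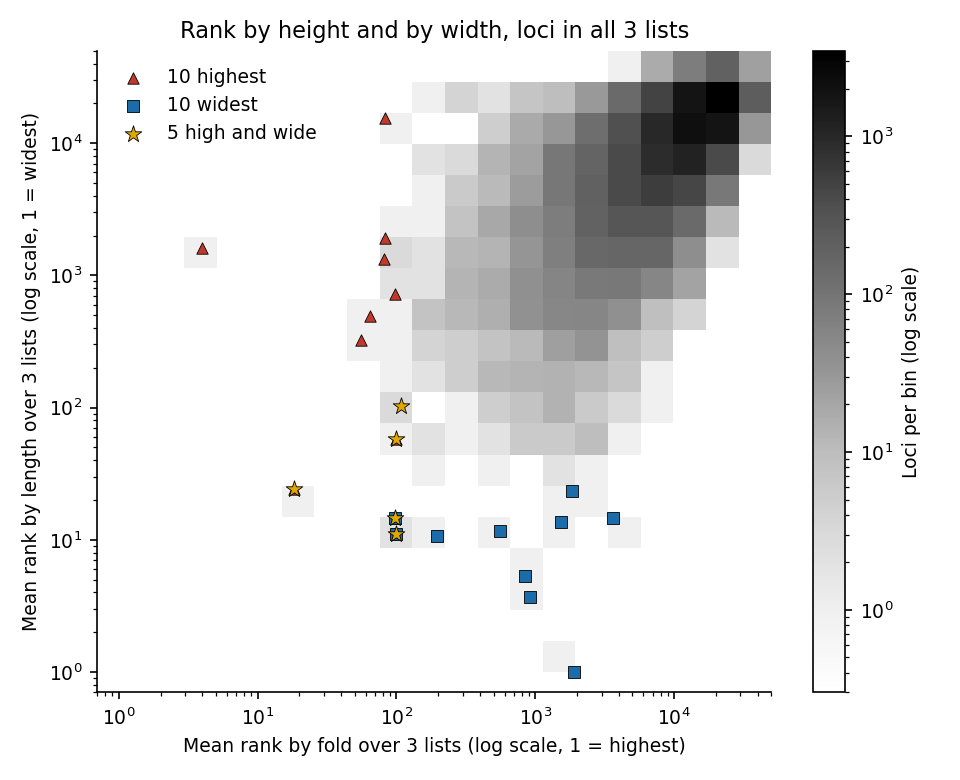
Mean rank by fold (x axis) against mean rank by length (y axis) of the 19670 loci, both on log scales with 1 the highest or widest; grey bins give the number of loci and symbols the named sets. The 10 highest spread over length ranks from 14.7 to 15555, the 10 widest over fold ranks from 98.3 to 3650, and only 1 locus is in both.

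Wide loci often had another wide locus nearby. Of the 235 loci among the top 500 by length in every list, 66 (28.1%) had another of them within 50 kb, whereas 1366 of the 19435 other loci (7.03%) had one of the 235 within that distance. Loci are not replicates and are denser in some regions than in others, so these shares are given without a test. Chromosome 11 held 25 of the 235 and 1779 of the 19670 loci, the most of any chromosome in both counts. The X chromosome held 380 loci, 1.93% of the total, and none of them was among the top 500 of every list by fold or by length; chromosome 8, with 933 loci, also had none by fold and had 15 by length.

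Few peaks were very wide. The median peak was 493, 487 and 478 bp long, and 282, 180 and 186 peaks reached 5000 bp, of which 22, 15 and 8 reached 10000 bp. The widest 20% of each list covered 51.6% ± 0.462 (SD, n = 3 lists) of its acetylated sequence, and the widest 1% covered 7.76% ± 0.227. The median width of a joined locus was 981 bp.

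How far the lists shared their extremes differed between the orders. A peak was given the best rank of any peak that the other list had in the same joined locus. Of the top 100 peaks of a list by length, 48% to 60% were by this rank in the top 100 of another list. By fold, 8.91% to 21% were, with 101 peaks in the top 100 of replicate 3 because ties were kept. All of these peaks lay in a locus that held a peak of the other list. The difference therefore lay in rank and not in the presence of the locus. The median rank in the other list was 80 to 103.5 for peaks chosen by length and 573.5 to 954 for peaks chosen by fold. Over the 19670 loci, Spearman's rho between lists was 0.53 to 0.55 for fold and 0.71 to 0.73 for length; these loci share the libraries and depth of each list, and no p is given.

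**Figure D3:**
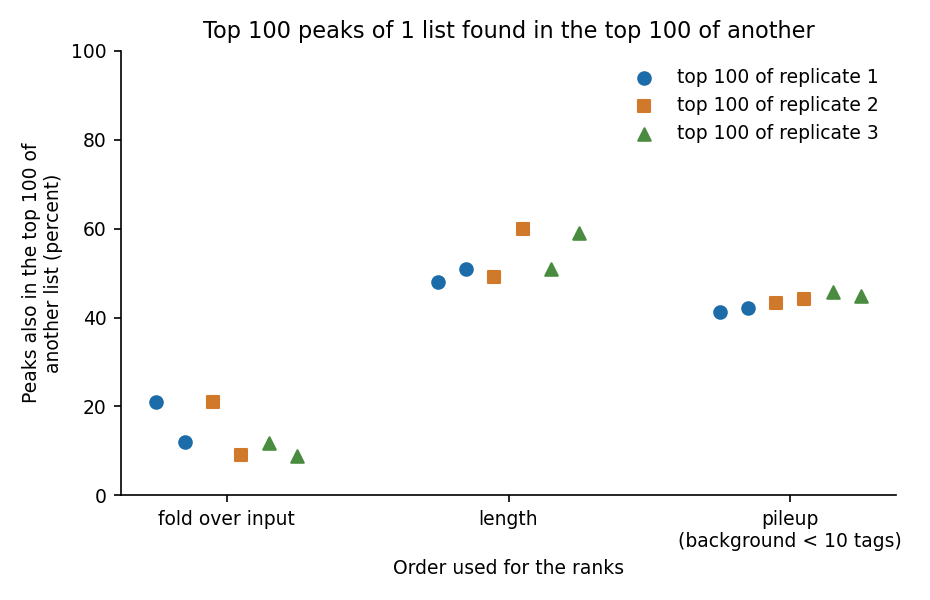
Share of the top 100 peaks of 1 list whose joined locus holds a top 100 peak of another list (percent), for ranks by fold, length and pileup. With ties kept, the top 100 by pileup held 114, 111 and 107 peaks, and the top 100 of replicate 3 by fold held 101. Each symbol is 1 of the 6 directions between the 3 lists, coloured by the list of origin. Ranks by fold give 8.91% to 21%, ranks by length 48% to 60%, and ranks by pileup, without peaks of high input background, 41.2% to 45.8%.

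The single peaks highest by fold rested on 74 to 155 tags, counted before scaling. The single highest peak of replicate 1, at chr1:88421377-88422845, had a summit of 155 tags and a fold of 47.9, with an exact Poisson 95% interval of 40.8 to 56.0; 27 peaks of that list had a fold at or above the lower bound. In replicate 2 the highest was chr5:30338362-30344351, with 74 tags and a fold of 27.7 (21.9 to 34.7, with 84 peaks at or above the lower bound). In replicate 3 it was chr6:129177620-129182977, with 106 tags and a fold of 39.8 (32.7 to 48.1, with 8 such peaks). The intervals cover the counting error of the immunoprecipitate only. None of these single highest peaks belonged to the 10 highest loci, and the order at the very top of 1 list was not resolved at this depth.

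The input entered the fold as well. Of the top 100 peaks by fold, 39%, 7% and 39% stood on the genome-wide background, the lowest value the caller allows, against 26.1%, 12.7% and 24.0% of all peaks. Ranked by pileup alone, leaving out the 23, 38 and 12 peaks with an input background of 10 tags or more, 32 loci were among the top 100 of every list in place of 3. Over all 19670 loci, high-input ones included, Spearman's rho between lists was 0.78 to 0.81 for pileup. Where the input alone was high, tags were many but folds low: 8 loci had a background of at least 10 tags in every list, and the highest fold among them was 6.86, at chr11:3023387-3024437. The largest pileup among the 8, at chr1:197067800-197068116, was 243, 297 and 265 scaled tags over a background of 98.0, 94.8 and 103 scaled tags, for folds of 2.47, 3.11 and 2.56.

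Taller peaks were longer in each list. The highest 20% of a list by fold had a median length of 1159, 1125 and 1155 bp, the rest of the list 419, 418 and 410 bp, and the ratio was 2.76 ± 0.063 (SD, n = 3 lists). The ratio was above 1 in 3 of 3 lists, for which the exact two-sided sign-flip permutation test gives p = 0.25, the smallest that 3 lists allow. In turn, the widest 20% had a median fold of 14.1, 10.4 and 12.1 against 7.21, 6.23 and 6.93 in the rest, a ratio of 1.79 ± 0.149 (p = 0.25 by the same exact test). Length and fold are read from the same tags, and Spearman's rho between them within a list was 0.56 to 0.62. Of the highest 20%, 57.3% ± 0.913 were also among the widest 20%.

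The rise in length was concentrated in the upper classes when each list was divided by fold into 10 classes of equal size. From class 1, the lowest, to class 5, the mean of the median lengths went from 331 ± 10.0 to 414 ± 2.18 bp, and from there to 1470 ± 27.2 bp in class 10, the highest (SD, n = 3 lists). The lists differed by far less than these steps at the top of the range. The distance to a neighbouring summit is partly limited by peak length, since that summit lies in another peak. The nearest neighbouring summit behaved otherwise than length. It lay at a median of 1092, 1067 and 1179 bp beside the highest 20% and 972, 1060 and 1097 bp beside the rest, a ratio of 1.07 ± 0.0587, above 1 in 3 of 3 lists (exact sign-flip permutation p = 0.25); the direction turned under other settings, with a ratio of 0.903 among peaks with a −log10 q of at least 10 and 0.939 when the mean of log10 distances replaced the median.

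**Figure D4:**
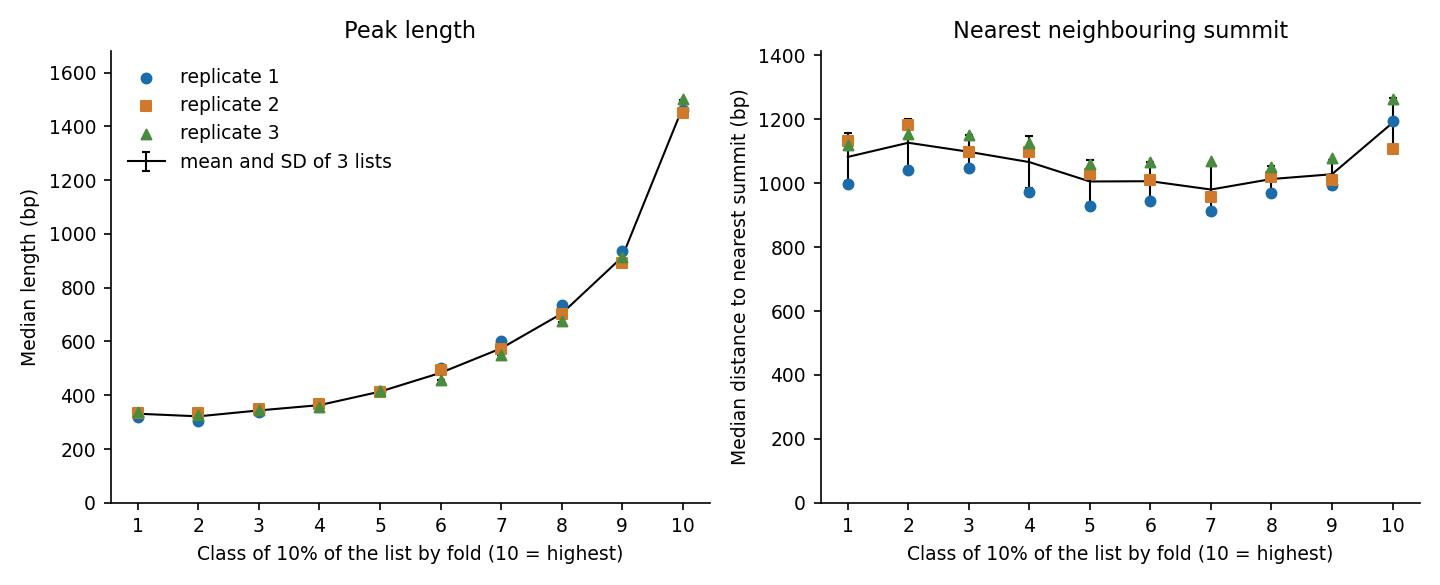
Median peak length in bp (left) and median distance in bp from a summit to the nearest neighbouring summit (right) by class of 10% of each list ordered by fold, 10 the highest; symbols are the 3 lists, the black line and bars their mean and SD. Length climbs to 1470 ± 27.2 bp in class 10, while the distance to the nearest summit stays between 980 and 1189 bp in the mean.

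Neighbouring summits lay at a median of 3029 bp in replicate 1, 3402 bp in replicate 2 and 4118 bp in replicate 3 (3516 ± 553, SD, n = 3 lists). The spread of spacings was wide: the 25th percentile was 916, 976 and 1016 bp, and the 75th 24303, 28919 and 33950 bp. Spacings of up to 1000 bp made up 27.9%, 25.8% and 24.5% of all pairs, and spacings over 50000 bp 16.6%, 18.5% and 20.3%. The most frequent class of 100 bp was 600 to 700 bp in all 3 lists, with 2210, 1699 and 1567 pairs. No summits lay closer than 162, 260 and 289 bp.

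The order of the lists in these values moved with the way peaks had been joined. The smallest gap between 2 peaks was 117, 143 and 173 bp, 1 bp more than the tag size of 116, 142 and 172 bp in the list's header, so that stretches closer than a tag had been joined, under a different limit in each list. With a gap of up to 172 bp joined in all lists, 4013 peaks of replicate 1 and 1637 of replicate 2 were merged into a neighbour, and the median spacing became 4715, 4292 and 4118 bp. The share of spacings up to 1000 bp became 21.6%, 22.8% and 24.5%. Replicate 1, which had the closest summits as deposited, had the most distant ones under a single limit. The most frequent class stayed at 600 to 700 bp in each list. Each peak has 1 summit, so short spacings are limited by peak length and by the smallest gap. The median peak was 493, 487 and 478 bp long, and the part of these limits in the most frequent class was not tested.

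**Figure D5:**
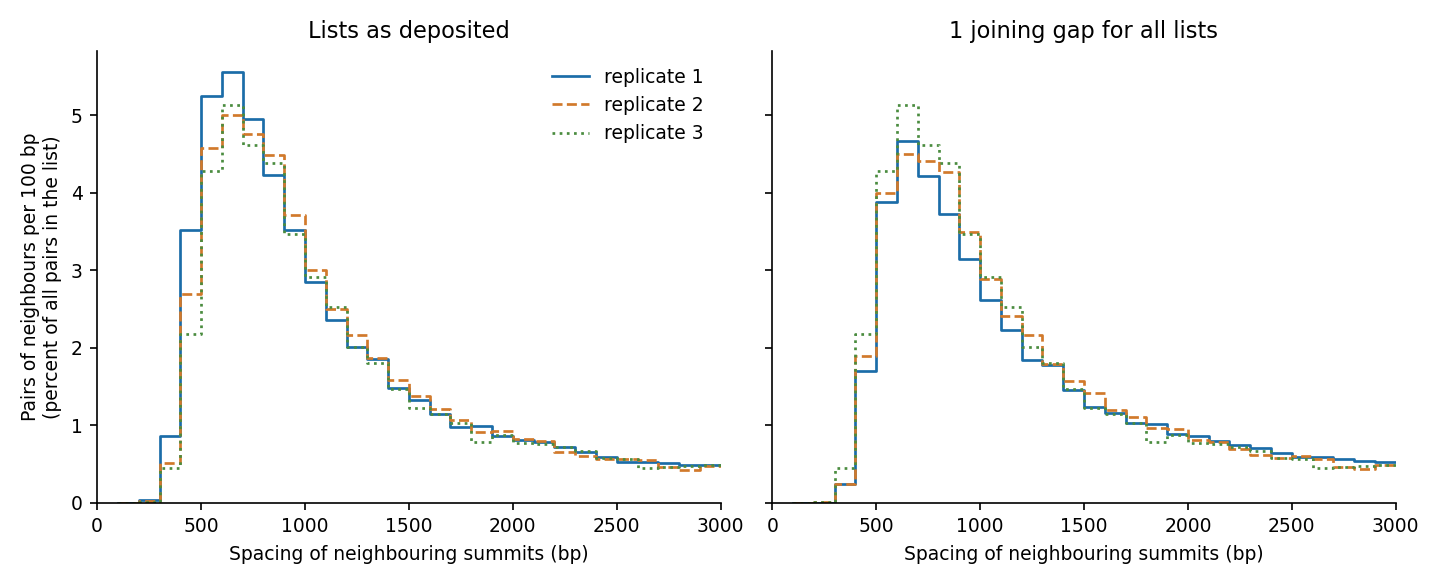
Spacing of neighbouring summits up to 3000 bp in classes of 100 bp (x axis), as the percent of all pairs of the list (y axis), for the lists as deposited (left) and after joining gaps of up to 172 bp in every list (right). In both panels each list peaks at 600 to 700 bp; replicate 1 is the tallest on the left, and replicate 3 on the right.

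Between peaks whose summits lay within 1000 bp, the median uncovered gap was 237, 263 and 283 bp. This value is confined by the choice of close pairs and by the smallest gap in each list, 117, 143 and 173 bp. The higher fold of such a pair was 1.41, 1.32 and 1.36 times the lower in the median, against 1.51, 1.36 and 1.40 times for neighbours more than 50000 bp apart. Spearman's rho between the folds of neighbours was weak, at 0.27, 0.24 and 0.20 within 1000 bp and 0.014, 0.017 and 0.014 beyond 50000 bp, as a description over pairs that share their list's libraries. Of all summits, 49.7%, 52.9% and 55.1% had no other within 1000 bp (52.6% ± 2.76, SD, n = 3 lists).

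Chains of summits, each within 1000 bp of the next, were short. The longest held 7, 8 and 6 summits. The chain of 8 in replicate 2 was at chr6:88382409-88387831, with a mean spacing of 637 bp, and the same stretch held 5 peaks in replicate 1 and 6 in replicate 3. In replicate 1 those 5 peaks covered 5147 bp, more than the 3659 bp of the 8 peaks in replicate 2. One of the 4 chains of 7 in replicate 1, at chr11:108131980-108135689, was 4 peaks in replicate 2 and 2 in replicate 3. The folds were 3.77 to 10.4 over the 3 lists in the chromosome 11 stretch. They were higher in other chains, up to 19.7 in replicate 1 in the chain of 7 at chr5:116477754-116482259 and up to 23.7 in replicate 1 at chr9:61527040-61531409, which was a chain of 6 in replicate 3.

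The locus with the most summits was chr1:182347503-182364462. Replicate 1 had 2 peaks there, one of them 14569 bp long, whereas replicate 2 had 11 peaks, the longest of 4050 bp, and replicate 3 had 12, the longest of 2666 bp. The sequence covered was 16729, 13057 and 10454 bp, and the median spacing 1309 bp in replicate 2 and 1112 bp in replicate 3. The same domain thus ranked 3, 354 and 1008 by length. Next were chr2:131676971-131692282, with 3, 7 and 9 peaks and a longest one of 6063, 3767 and 2483 bp, and chr3:157229954-157242565, with 7, 7 and 4 peaks and a longest one of 5278, 7274 and 6358 bp.

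Such splitting was common in wide loci. Of all 19670 loci, 6311 (32.1%) had different numbers of peaks in the lists, and of the 533 loci of at least 5000 bp, 480 (90.1%) did. A wide locus has more room for several peaks, so this contrast is partly fixed by width. The counts were taken on the lists as deposited, with their different joining gaps. Over the 234 loci with 2 summits in every list, the median spacing was 1198, 1116 and 1164 bp. Within such a locus the spacing had a median range over the lists of 671 bp, and a range of up to 200 bp at 12.4% of them. Spearman's rho of the spacing between lists was 0.50, 0.47 and 0.45 over these loci, which share their lists' libraries.

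The place of single summits was compared in pairs of lists over all 19670 loci, of which 66.6% held 1 peak in each list. These distances are therefore not on the same terms as the range of spacings above. The highest summits of a locus in 2 lists lay 71 bp apart in the median for replicates 1 and 2, 66 bp for replicates 1 and 3 and 85 bp for replicates 2 and 3 (74 ± 9.85, SD over 3 pairs of lists, which share lists). Within 200 bp were 73.5% ± 1.90. In loci of at least 5000 bp the median distance was 408, 258 and 476 bp, and to the nearest summit of the other list it was 130, 81 and 161 bp. The second distance cannot exceed the first where a locus has several summits, so the step between them is partly fixed by how it is measured. The summit lay in the middle part of its peak, between 25% and 75% of its length, in 70.5% ± 2.94 of peaks, and in 54.9% ± 2.37 of the widest 20%.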

How the data were processed

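The authors called peaks with MACS2, version 2.1.1.20160309 per the file headers of the H3K27ac lists; the submitters' processing notes name version 2.0.10.20130306 and the mm9 build. No source used here gives the aligner. The deposited lists hold, per peak and per the file headers, a pileup signal at the summit (tags scaled to the smaller library of the pair), a −log10 p-value and −log10 q-value, and a fold ratio over the local input, kept at a q limit of 0.001. Tag sizes and library totals were read from the headers. Dividing the pileup by the scale of its library gave whole tags for 100% of peaks (tolerance 0.05), and the input background at each summit was solved from pileup and fold. Peaks of each list were called separately, each immunoprecipitate with its own input.

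Loci are unions of peaks overlapping by at least 1 bp across the lists. Named are the 10 loci with the lowest mean rank by fold, the 10 by length, the 5 lowest by the worse of both, the 3 with the most summits, and those beside the rank limit of 100; single highest peaks, the neighbouring-domain gaps, the chains and the high-input loci were described in addition, chosen after their values were seen. The loci and orders were chosen with earlier results of these data known. Summit spacing is the distance between successive summits on a chromosome. Ratios within a list were tested with an exact two-sided sign-flip permutation test over 3 lists. The calculations, tested on simulated lists (8 of 8 quantities recovered), used Python 3.11.15, NumPy 2.4.6, pandas 2.3.3, SciPy 1.17.1 and Matplotlib 3.10.9. Coordinates are 1-based mm9; no sequence or gene name is printed, as no mm9 genome or annotation was used here. The 4 H3K4me1 samples were not analysed here. Tags without molecular identifiers are not independent molecules, so intervals cover counting error only.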

Additional observations from a re-analysis of the deposited data

How the results depend on the processing

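No paired analysis was possible because no test compared groups of samples: each result comes from lists in which an immunoprecipitate is already set against its own input. Of 105 alternative values, 75 were called the same, 28 moved and 2 turned direction. A count was called the same within a fixed factor, and a spacing, share or distance within the SD of the main value. A ratio was called the same by direction alone, whatever its size. At a −log10 q of at least 10, the length ratio went from 2.76 to 2.27 and the fold ratio from 1.79 to 1.49. Some of the 75 called the same could not change. The setting of only pairs of different intervals left every pair in place, and the count by length does not use pileup. Limits on q and lists of equal size dropped the least significant peaks and left the counts of 3, 36 and 20 as they were. The cause of a change was not tested unless the setting itself shows it. The number of loci among the top 100 by fold (3) became 31 by pileup, 32 by pileup without high-input peaks (added after seeing the data) and 71 at a limit of 500; by length, the count of 36 became 56 when peaks were joined across 1000 bp, 17 at a limit of 50 and 235 at 500. The count of 20 loci high and wide became 51 when joined across 1000 bp, 82 by pileup with or without high-input peaks and 1 at a limit of 50. With only 2 lists to satisfy, leaving out replicate 1, 2 or 3 gave 9, 11 and 21 loci by fold, 59, 51 and 48 by length and 43, 43 and 44 by both. The median spacing of 3516 bp became 4231 and 11011 bp at a −log10 q of at least 5 and 10, 4726 bp in lists of equal size, 1852 bp for pairs within 50 kb, 6047 bp as a geometric mean and 4375 bp under 1 joining gap (added after seeing the data), and 3216 to 3760 bp without each replicate. The share within 1000 bp became 18.1% at a −log10 q of at least 10, 24.0% in lists of equal size, 32.0% within 50 kb and 23.0% under 1 joining gap, and 25.2% to 26.9% without each replicate. The distance between highest summits became 62.8 bp at a −log10 q of at least 10 and was 65 to 82 bp without each replicate. The ratio of nearest-summit distances reversed to 0.903 at a −log10 q of at least 10 and to 0.939 with log10 means; the length and fold ratios stayed above 1 in all alternatives run. Of the 10 highest loci, 1 to 10 stayed among the 10 (1 by pileup, and 4, 2 and 6 without replicates 1, 2 and 3), and of the 10 widest, 2 to 10 (2 when joined across 1000 bp).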
